A study of Mus musculus with 10 samples.

Results

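The cyclin-dependent kinase (CDK) inhibitor family consisted here of 8 genes, chosen by symbol among the 53379 genes counted. The 3 Cip/Kip members were Cdkn1a (encoding p21), Cdkn1b (p27) and Cdkn1c (p57). The 4 INK4 members were Cdkn2a (p16INK4a and p19ARF), Cdkn2b (p15), Cdkn2c (p18) and Cdkn2d (p19INK4d), and Cdkn3, which encodes a phosphatase of CDKs, completed the family. The question was whether other members were higher where Cdkn1c had been deleted.

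CDKs drive a cell through its division cycle once they are bound by a cyclin. INK4 proteins bind Cdk4 and Cdk6 and keep them from D-type cyclins, whereas Cip/Kip proteins bind assembled cyclin-CDK complexes of several kinds and, with D-type cyclins, can also aid their assembly. In the developing cortex p27 and p57 are known for their part in the exit of progenitor cells from the cycle, and Cdkn1c is imprinted, with expression mainly from the maternal allele.

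RNA was sequenced from sorted cells of the Emx1+ lineage of embryonic day 16 (E16) neocortex, in 3 cKO-Cdkn1c-MADM-7 (cKO) and 7 control MADM-7 (control) embryos. All 10 embryos carried the MADM-7 GT and TG cassettes on chromosome 7 and Emx1-Cre, in a mixed C57BL/6J, CD1 background that the labels give as CD1. The cKO embryos in addition carried a Cdkn1c-flox allele on both copies of chromosome 7. Each library held 400 cells of 1 embryo and was made with Smart-Seq2, which copies whole polyadenylated transcripts without molecular identifiers. Emx1-Cre is active in the dorsal cortical lineage, from radial glial progenitors (RGPs) to their neurons, so that Cdkn1c was left intact outside that lineage. In MADM (mosaic analysis with double markers) Cre-driven exchange between both copies of a chromosome labels cells in green, red or both colours. Green and red cells can hold chromosome 7 from 1 parent only, and because all labelled cells were sorted together, each control library averaged over cells with different doses of the active Cdkn1c allele. In cKO the deletion was on both copies, whichever parent they came from. In such bulk samples fewer cells of a type and less RNA per cell cannot be told apart.

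The libraries held 1738220 to 3362487 reads on genes, and 5.47% to 16.7% of all uniquely aligned reads lay outside genes. The latter share split the libraries into a lower set (cKO replicate 3 with 4 controls) and a higher set (cKO replicates 1 and 2 with 3 controls). Markers of RGPs and projection neurons were detected in both genotypes: the 11 RGP markers summed to 1419 to 2597 CPM in cKO and 1531 to 2596 in controls, where CPM are counts scaled to the same total of reads on genes in every library. The 16 projection neuron markers summed to 6456 to 8774 CPM in cKO and 8876 to 11660 in controls. Of the 16, 4 passed the test as lower, beside 0.883% of all genes tested. Cajal-Retzius markers stood apart, with sums of 577 to 706 CPM in cKO and 16.3 to 175 in controls for 7 genes. All 6 of these markers with enough reads passed the test as higher, beside 2.27% of all genes tested. None of the 7 was at 0 throughout either genotype. The 12 microglia and blood markers ranged from 30.3 to 1917 CPM in cKO and from 2.90 to 1550 in controls, and the 4 haemoglobins among them from 16.1 to 1910 and from 0 to 1550 CPM. The 8 markers of microglia and other leukocytes, none with enough reads for the test, summed to 3.15 to 39.0 CPM (8 to 92 reads) in cKO and 0 to 6.81 CPM (0 to 21 reads) in controls, and Csf1r was at 0 in every control. The 10 interneuron markers summed to 46.5 to 169.7 and 65.8 to 270.3 CPM, a sum led in controls by Npy (7.52 CPM on average in cKO and 88.5 in controls, called lower). Of the 8 interneuron markers tested, 7 had a higher estimate in cKO (median log2 fold change 1.03), 5 had an unadjusted p under 0.05 and Dlx2 was called higher. Over all genes tested 51.3% of estimates were above 0 and 16.4% had an unadjusted p under 0.05. The 9 endothelial and mural markers, none with enough reads for the test, summed to 5.06 to 27.2 CPM in cKO and 3.27 to 11.6 in controls. The 8 intermediate progenitor markers summed to 1245 to 1446 and 1049 to 1684 CPM, and none of them nor of the RGP markers passed the test.

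The family lies on 6 chromosomes of GRCm38. Cdkn2a (chr4:89274471-89294653) and Cdkn2b (chr4:89306299-89311039) are neighbours on the minus strand, 11645 bases apart, and Cdkn2c (chr4:109660876-109667189) lies 20.3 Mb further along. Cdkn1a (ENSMUSG00000023067.13, chr17:29090976-29100727) and Cdkn1b (ENSMUSG00000003031.14, chr6:134920401-134925513) are on the plus strand, and Cdkn1c (ENSMUSG00000037664.13, chr7:143458339-143461050) is on the minus strand of the MADM chromosome. Cdkn2d (ENSMUSG00000096472.2) is at chr9:21288410-21291407 and Cdkn3 (ENSMUSG00000037628.10) at chr14:46760541-46771669. RefSeq (GRCm38.p6) gave 10 promoter windows of 300 bases, from 250 before to 50 after a transcription start, for 7 of the 8 members, and a window of Cdkn1c was not used here.

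The windows shown are those of Cdkn1a, the member that was higher in cKO, and of Cdkn1b, its Cip/Kip relative that did not pass the test. That of Cdkn3 is also shown, whose log2 fold change was the next highest after that of Cdkn1a. Capitals mark matches on either strand to a p53 half-site in window 1 of Cdkn1a, to GGGCGG (the core of an Sp1 site, read as CCGCCC on the other strand) and to TTTGAA (the cell cycle genes homology region, read as TTCAAA on the other strand).
Cdkn1a window 1 (chr17:29090729-29091028, plus strand): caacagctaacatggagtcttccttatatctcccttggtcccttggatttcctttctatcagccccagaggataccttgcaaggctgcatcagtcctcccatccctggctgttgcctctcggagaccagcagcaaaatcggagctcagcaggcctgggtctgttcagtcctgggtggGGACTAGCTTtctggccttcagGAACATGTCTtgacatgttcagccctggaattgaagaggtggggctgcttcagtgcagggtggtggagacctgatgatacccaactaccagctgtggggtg
Cdkn1a window 2 (chr17:29093519-29093818, plus strand): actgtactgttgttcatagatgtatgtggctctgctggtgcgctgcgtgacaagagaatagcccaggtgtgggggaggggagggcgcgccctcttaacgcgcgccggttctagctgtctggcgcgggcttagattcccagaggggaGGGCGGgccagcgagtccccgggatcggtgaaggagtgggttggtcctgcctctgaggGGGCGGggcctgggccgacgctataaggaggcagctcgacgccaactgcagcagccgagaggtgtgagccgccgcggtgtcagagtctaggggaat
Cdkn1b window 1 (chr6:134920151-134920450, plus strand): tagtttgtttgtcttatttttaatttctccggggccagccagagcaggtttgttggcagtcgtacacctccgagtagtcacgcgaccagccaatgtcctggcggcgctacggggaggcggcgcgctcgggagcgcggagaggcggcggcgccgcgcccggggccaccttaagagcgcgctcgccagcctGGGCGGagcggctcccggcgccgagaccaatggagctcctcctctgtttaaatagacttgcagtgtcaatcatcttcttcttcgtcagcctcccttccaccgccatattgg
Cdkn3 window 1 (chr14:46760291-46760590, plus strand): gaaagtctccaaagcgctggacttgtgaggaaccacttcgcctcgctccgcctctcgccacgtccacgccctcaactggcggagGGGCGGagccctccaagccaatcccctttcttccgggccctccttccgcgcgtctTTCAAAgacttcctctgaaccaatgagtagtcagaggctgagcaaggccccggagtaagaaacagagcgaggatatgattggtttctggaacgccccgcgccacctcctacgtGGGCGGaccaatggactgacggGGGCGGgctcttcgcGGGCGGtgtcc
Window 1 of Cdkn1a belongs to its upstream start and held 2 p53 half-sites, beginning 73 and 51 bases before the start. Such a half-site was found in 8.36% of all 32851 windows, and among the other members also in the window of Cdkn2d, 102 bases before the start. A p53 response element was counted only as 2 exactly matched half-sites without a gap. This form was in 0.00913% of all windows and in none of the members' windows. Pairs with a gap, as in window 1 of Cdkn1a, or with a mismatched base were not counted. The windows may therefore hold a p53 response element of another form. GGGCGG was present in 35.7% of all windows. It stood 2 times in window 2 of Cdkn1a, 1 time in that of Cdkn1b and 4 times in that of Cdkn3. TTTGAA, in 17.9% of all windows, stood once in the window of Cdkn3, 111 bases before the start, and in neither window of Cdkn1a nor in that of Cdkn1b. TGATGNAA, TTTNGCGC and TATAAA, in 3.97%, 1.38% and 13.6% of all windows, matched none of the 4 windows shown. These matches describe the letters only.

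Of the 8 members, 6 had the mean of at least 10 reads per library that the test required. Genes were tested with edgeR's quasi-likelihood test, with Benjamini-Hochberg adjustment over all 11551 genes tested, and a gene was called where the adjusted p was under 0.05. Of the 6 members tested, 1 was called higher (Cdkn1a) and 1 lower (the deleted Cdkn1c), beside 2.27% of all genes tested called higher and 0.883% called lower. The cKO libraries lay all above the controls in 3.32% and all below them in 2.68% of all genes tested. Each of the 6 had a mean above the required one in both genotypes, the lowest being 14.4 reads for Cdkn3 in controls.

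Cdkn1c, the deleted gene, was low in every cKO library. It had 10.8, 3.94 and 7.64 CPM in cKO replicates 1 to 3. Controls 1 to 7 had 100.9, 83.5, 85.9, 106, 67.5, 96.0 and 131 CPM. The genotypes did not overlap, and the highest cKO library lay far under the lowest control. The mean level was 7.46 ± 3.43 CPM (SD, n = 3) in cKO and 95.9 ± 20.1 CPM (SD, n = 7) in controls. The log2 fold change was -3.66 ± 0.38 (SE) with an adjusted p of 3.68e-06 (edgeR). The remaining level was 0.0793 of that in controls (95% confidence interval 0.0453 to 0.139). The cKO value rests on 60 reads in all, and the gene counts do not show where along Cdkn1c these reads lay.

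An annotated antisense transcript, Gm44732, shares 30.6% of the exon bases of Cdkn1c. Reads on shared bases are left out when the strand is ignored, and the libraries carried no strand information. Gm44732 accordingly had 0 reads in the counts that ignore the strand and 1737 in the sum of both strands. In that sum the same 1737 reads were also counted for Cdkn1c, which rose from 1943 to 3680 reads. They are thus not reads of Gm44732 alone. With the sums, Cdkn1c had 58, 16 and 37 reads in cKO and 226 to 680 in controls, and the genotypes again did not overlap. Reads of Cdkn1c and Gm44732 cannot be told apart on these bases, and the values of Cdkn1c carry this uncertainty.

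Cdkn1a, the Cip/Kip inhibitor known as a target of p53, was higher in every cKO library. It had 209, 163.5 and 360.2 CPM in cKO replicates 1 to 3. Controls 1 to 7 had 13.4, 69.2, 9.71, 22.1, 18.1, 20.1 and 24.2 CPM. The genotypes did not overlap. The lowest cKO library had 2.36 times the level of the highest control, replicate 2, and 6.76 times that of the second highest. Mean levels were 244 ± 103 CPM (SD, n = 3) in cKO and 25.2 ± 20.0 CPM (SD, n = 7) in controls. The log2 fold change was 3.27 ± 0.38 (SE) with an adjusted p of 5.80e-05 (edgeR), or 9.62-fold (95% confidence interval 5.52 to 16.8).

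Within the set of libraries with a lower share of reads outside genes Cdkn1a was 11.3 times as high in cKO as in controls, and within the set with a higher share it was 11.2 times as high. Without control replicate 2 the mean control level was 17.9 ± 5.46 CPM (SD, n = 6). The Cajal-Retzius sum was 175 CPM in control replicate 2 and 161 CPM in control replicate 4, which had 69.2 and 22.1 CPM of Cdkn1a. Microglia and blood markers summed to 1263 CPM in control replicate 2 and to 1550 CPM in control replicate 5, which had 18.1 CPM of Cdkn1a. In cKO replicates 1 to 3 they summed to 1917, 30.3 and 55.2 CPM. The part of these cells in the level of Cdkn1a was not tested. The annotated transcript AC167363.2, which shares 273 bases (7.68%) of the Cdkn1a exons, had 0 reads by either way of counting.

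Cdkn1b, which encodes the other Cip/Kip inhibitor of the cortex, did not pass the test. It had 90.1, 53.6 and 63.6 CPM in cKO replicates 1 to 3, and in controls 70.5 CPM at the lowest, 82.2 at the median and 88.9 at the highest. The genotypes overlapped: cKO replicate 1 lay above all controls and the other two below them. The log2 fold change was -0.24 ± 0.18 (SE) with an adjusted p of 0.551 (edgeR). The 95% confidence interval of the fold ran from 0.651 to 1.095. Leaving out each library in turn gave a log2 fold change of -0.50 (without cKO replicate 1) to -0.10 (without cKO replicate 2).

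**Figure D1:**
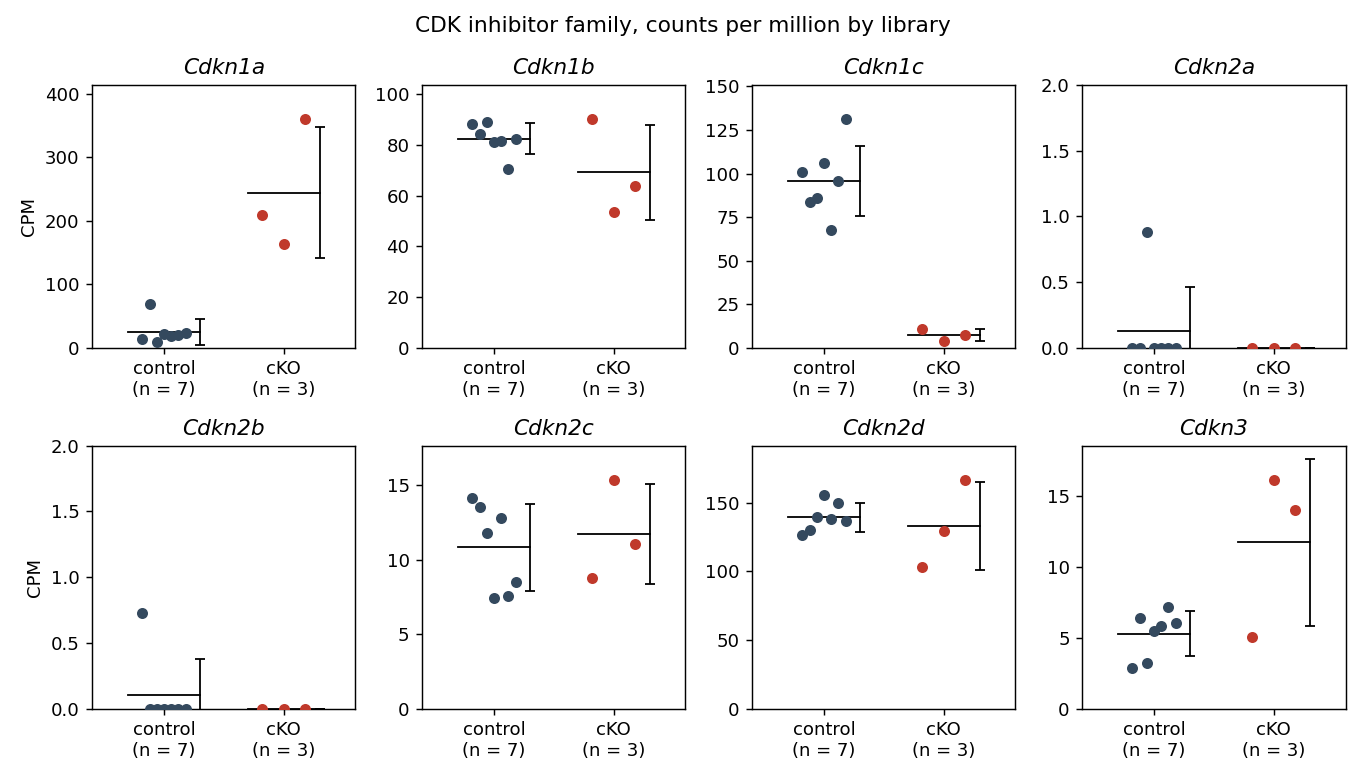
CPM (linear axes that start at 0) of each family member in every library, for 7 control and 3 cKO embryos. Points are libraries, horizontal lines are means and bars are ± 1 SD. Cdkn1a in cKO (163.5 to 360.2 CPM) and Cdkn1c in cKO (3.94 to 10.8 CPM) lie apart from all controls, while the other members overlap.

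Among INK4 genes, Cdkn2d was the most abundant in both genotypes. It had 103.5, 129 and 167 CPM in cKO replicates 1 to 3, and 126 to 156 CPM in controls with a median of 139. The cKO libraries lay on both sides of the controls, with replicate 1 below and replicate 3 above all of them. The log2 fold change was -0.08 ± 0.16 (SE), with an adjusted p of 0.874 (edgeR) and a 95% confidence interval of the fold from 0.754 to 1.195. Its ratio of cKO to control was 1.23 in the set of libraries with a lower share of reads outside genes and 0.804 in the other set.

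Cdkn2c, an INK4 gene known from dividing progenitors, had 8.77, 15.4 and 11.03 CPM in cKO replicates 1 to 3. Controls had 7.46 CPM at the lowest, 11.8 at the median and 14.2 at the highest. The ranges overlapped almost wholly. Its log2 fold change was 0.11 ± 0.33 (SE) with an adjusted p of 0.905 (edgeR). With 21 to 40 reads per library, its 95% confidence interval of 0.667- to 1.76-fold was wider than that of Cdkn2d.

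Cdkn2a (ENSMUSG00000044303.6) and Cdkn2b (ENSMUSG00000073802.4) had too few reads for the test. Cdkn2a had 3 reads in all, in control replicate 3, and Cdkn2b had 2, in control replicate 1. All 3 cKO libraries had 0 reads of either gene, which allows up to 0.382 CPM over the group (3 counts, counting error only). Neither gene was detectable in cKO at this depth, and the gene counts do not separate p16INK4a from p19ARF.

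Cdkn3, which encodes a dual-specificity phosphatase that acts on CDKs and is known to be made late in the cycle, had 5.06, 16.2 and 14.0 CPM in cKO replicates 1 to 3. Controls 1 to 7 had 2.90, 6.42, 3.24, 5.51, 5.82, 7.19 and 6.05 CPM. Of the 3 cKO libraries, 2 lay above all controls and replicate 1 lay among them. The mean was 11.7 ± 5.88 CPM (SD, n = 3) in cKO and 5.31 ± 1.62 CPM (SD, n = 7) in controls. This made a log2 fold change of 1.12 ± 0.40 (SE), and the adjusted p of 0.159 (edgeR) did not pass the threshold. Its 95% confidence interval, without adjustment for the number of genes, ran from 1.21- to 3.89-fold. Without cKO replicate 1 the log2 fold change was 1.52 with an adjusted p of 0.0338 (edgeR). The difference thus passed or failed the threshold by the inclusion of 1 library.

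**Figure D2:**
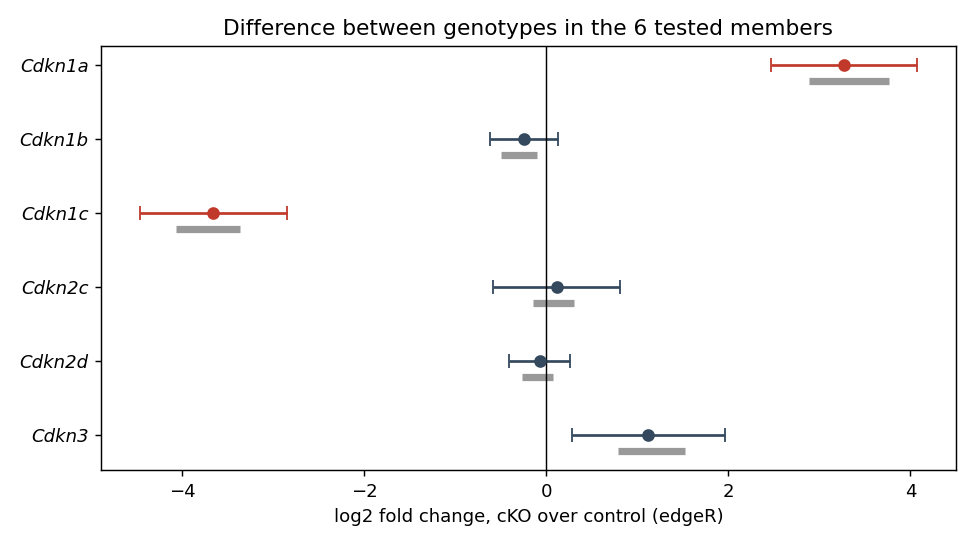
Log2 fold change of cKO over control (edgeR) for the 6 members tested, with 95% confidence intervals as thin bars and, as thick grey bars below, the range of the estimate when each library in turn was left out. Red marks the genes called, Cdkn1a at 3.27 and Cdkn1c at -3.66. The interval of Cdkn3 excludes 0 before adjustment over all genes, and those of Cdkn1b, Cdkn2c and Cdkn2d include it.

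In controls the coefficient of variation (SD over mean of CPM, n = 7) was 7.40% for Cdkn1b and 7.51% for Cdkn2d, beside 6.62% and 5.09% from counting alone at their read numbers. These counting errors treat reads as independent molecules, which amplified reads without molecular identifiers are not, so they are lower limits. It was 21.01% for Cdkn1c, 26.8% for Cdkn2c and 30.5% for Cdkn3, beside counting errors of 6.10%, 18.4% and 26.3%. Cdkn1a varied most in controls, at 79.2% against a counting error of 12.0%, through replicate 2. In cKO (n = 3) the coefficient was 42.1% for Cdkn1a, 27.3% for Cdkn1b, 46.0% for Cdkn1c, 28.6% for Cdkn2c, 23.9% for Cdkn2d and 50.1% for Cdkn3. These values are descriptions, and the difference in spread between genotypes was not tested.

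Levels of different members were compared per length, as CPM per 1000 exon bases. In controls the order was Cdkn2d (88.7 ± 6.65), Cdkn1c (47.0 ± 9.88), Cdkn1b (18.1 ± 1.34), Cdkn1a (7.11 ± 5.63), Cdkn2c (4.03 ± 1.08) and Cdkn3 (2.24 ± 0.683) (mean ± SD, n = 7). Cdkn2d lay above Cdkn1c, and Cdkn1c above Cdkn1b, in 7 of 7 controls. Cdkn1b lay above Cdkn1a in 6 of 7 and Cdkn1a above Cdkn2c in 5 of 7, so that the neighbours from Cdkn1b down to Cdkn3 were not set apart in every control. Cdkn2a (0.108) and Cdkn2b (0.0746) came last, each from reads in a single library.

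In cKO the order was Cdkn2d (84.6 ± 20.2), Cdkn1a (68.8 ± 29.0), Cdkn1b (15.2 ± 4.14), Cdkn3 (4.95 ± 2.48), Cdkn2c (4.36 ± 1.25) and Cdkn1c (3.66 ± 1.68) (CPM per 1000 exon bases, mean ± SD, n = 3). With the strand ignored, Cdkn2d, Cdkn1a, Cdkn1b and Cdkn3 stood in this order relative to each other in 3 of 3 libraries. Over exon bases that no other gene shares, Cdkn2d lay above Cdkn1a in 2 of 3 and Cdkn1c came after Cdkn1b (5.27), as it did with both strands summed (6.79). Cdkn3 exceeded Cdkn2c, and Cdkn2c exceeded Cdkn1c, in 2 of 3, and these last 3 members were not set apart. Among 11545 tested genes with a known length, Cdkn1a had a higher level per length than 50.5% of them in controls and than 92.1% in cKO. Cdkn1c had a higher level than 88.5% in controls and than 31.3% in cKO, and Cdkn2d stayed near 94% in both (94.0% and 93.6%). With both strands summed, Cdkn1c reached 89.2 CPM per 1000 exon bases in controls and lay above Cdkn2d in only 2 of 7 of them, so the leading place in controls depends on how its shared bases are counted.

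Per length, the gain in Cdkn1a was set beside the loss of Cdkn1c. With the strand ignored, the mean of Cdkn1a was 61.6 CPM per 1000 exon bases higher in cKO and that of Cdkn1c fell by 43.4, while Cdkn1b fell by 2.91. The summed Cip/Kip level was 83.9, 59.7 and 119 in cKO replicates 1 to 3, and 56.1 to 89.2 in controls, so that the genotypes overlapped (87.6 ± 29.9 against 72.2 ± 10.7, mean ± SD, a ratio of 1.21). This ratio depends on how the shared bases of Cdkn1c are treated. Over exon bases that no other gene shares it was 1.01 (94.9 against 93.6), and with both strands summed it was 0.794 (90.8 against 114). In the latter counts Cdkn1c alone fell by 82.4, more than the 61.7 that Cdkn1a gained.

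The makeup of the Cip/Kip sum turned over. In controls Cdkn1c made up 64.9% of it, Cdkn1b 25.5% and Cdkn1a 9.61%. In cKO Cdkn1a made up 77.4%, Cdkn1b 18.3% and Cdkn1c 4.23%. Cdkn1a held 70.1% to 85.1% of the sum in the cKO libraries, and 4.24% to 24.7% in controls. With both strands summed, the shares of Cdkn1c were 77.7% in controls and 7.40% in cKO, and those of Cdkn1a were 6.21% and 74.9%. Without Cdkn1c the Cip/Kip sum was 83.9 in cKO and 25.2 in controls, 3.33 times as high. The INK4 sum was 89.0 in cKO and 92.9 in controls, a ratio of 0.958. These sums follow from the members' own values and carry no test, and they count transcripts, not proteins.

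**Figure D3:**
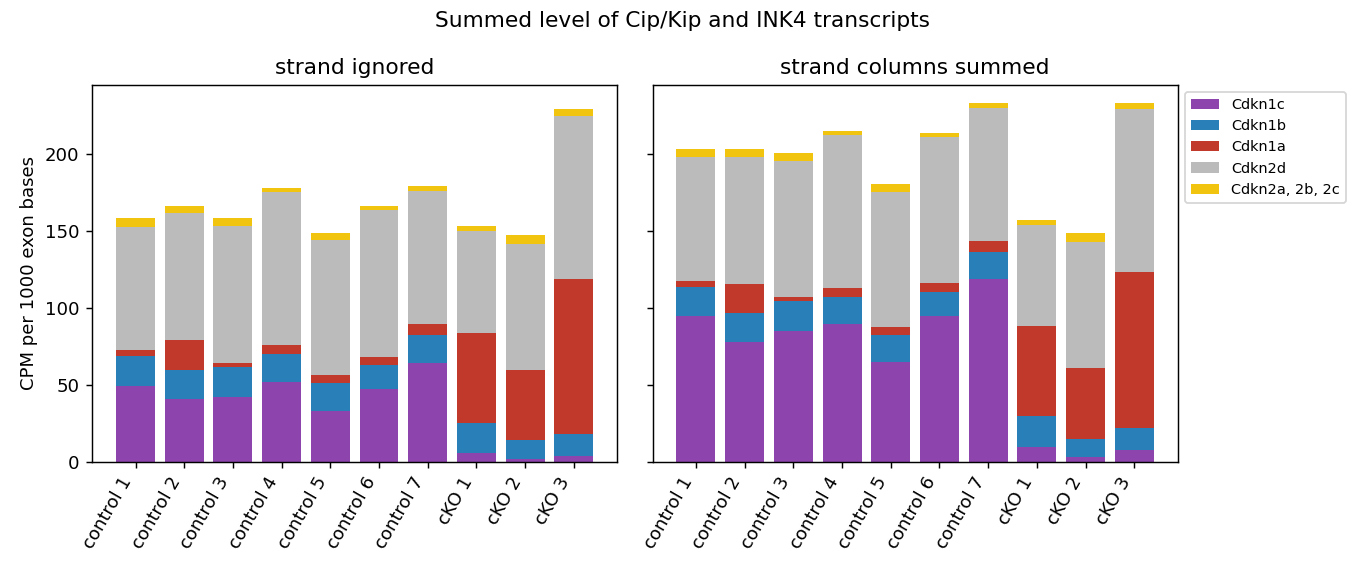
Summed level of Cip/Kip and INK4 transcripts in each library, in CPM per 1000 exon bases on a linear axis from 0, stacked by gene, with the strand ignored (left) and with the counts of both strands summed (right). Cdkn1c (purple) makes up much of the control bars and Cdkn1a (red) of the cKO bars, and Cdkn2d (grey) is present in all 10 libraries. The height of the control bars differs between the panels through Cdkn1c.

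Genes around the CDK inhibitors were read from 7 lists of 128 genes in all, of which 118 were tested. Of these 19 were called higher and 1 lower (16.9%), beside 3.15% of all genes tested, and the median log2 fold change was 0.51 beside 0.01 over all genes tested. The lists were chosen with earlier results of these data known, so their shares are descriptions. Of the 20 calls, 9 passed the threshold in each of the 10 fits that left out 1 library, namely Ccnd2, Trp73, Foxo1, Phlda3, Sesn2, Eda2r, Psrc1, Gtse1 and Hmgb2. The other 11 did not in 1 or more of those fits.

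Among the CDKs and cyclins that the inhibitors bind, 4 of 12 genes were called higher and none lower. Over all genes tested 2.27% were called higher and 0.883% lower. The median log2 fold change of the 12 genes was 0.64. Ccnd2, a D-type cyclin, had 572, 767 and 607 CPM in cKO and 241 to 443 in controls (log2 fold change 0.93 ± 0.18 SE, adjusted p = 0.00575, edgeR). Its ranges did not overlap. Cdk1 and its cyclins Ccnb1 and Ccnb2, which act in mitosis, had log2 fold changes of 1.05, 1.20 and 1.19. In each of these 3 genes cKO replicate 1 lay among the controls and the other cKO libraries above all of them, and without cKO replicate 2 their adjusted p was 0.240, 0.165 and 0.120 (edgeR). Cdk4 and Cdk6, the targets of INK4 proteins, had log2 fold changes of -0.06 ± 0.13 and 0.20 ± 0.32 (SE), with adjusted p of 0.873 and 0.826 (edgeR).

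Of 8 genes that activate or hold back CDKs none was called (median log2 fold change 0.25), and 2 of 8 had an unadjusted p under 0.05, beside the 16.4% of all genes tested. These were Cdc25c and Cdc25b, phosphatases that activate CDKs, with log2 fold changes of 0.89 and 0.71 and adjusted p of 0.146 and 0.209 (edgeR). Downstream, 1 of 13 pocket protein and E2F genes was called (median 0.28), beside 3.15% of all genes tested. E2f7, a repressive E2F factor, had 25.6, 31.5 and 15.3 CPM in cKO and 6.81 to 15.1 in controls (log2 fold change 1.19 ± 0.30 SE, adjusted p = 0.0357, edgeR). Cdkn1a and E2f7 both lay above all controls in each cKO library, E2f7 by a narrow margin in replicate 3. Among 12 genes for the turnover of Cip/Kip proteins none was called (median -0.07) and 5 had an unadjusted p under 0.05. Cks1b, a cofactor of the ligase that marks p27, had a log2 fold change of 0.62 and an adjusted p of 0.0945. Rnf123, a ligase subunit for p27, had -1.09 and 0.190, and with both strands summed -0.45 and 0.475 (edgeR). The transcript data do not show whether p27 protein differed.

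Of 21 transcription factors and chromatin genes known to act on CDK inhibitor genes, 3 were called higher and 1 lower. Over all genes tested these shares were 2.27% and 0.883%. The median log2 fold change of the 21 genes was 0.16. Trp73, a relative of p53, had 31.7, 20.9 and 35.2 CPM in cKO and 0 to 11.4 in controls (log2 fold change 2.69 ± 0.48 SE, adjusted p = 0.00214, edgeR). With DESeq2 its adjusted p was 0.0807, above the threshold. Trp73 is also one of the Cajal-Retzius markers, whose sums differed as given above, and the part of those cells was not tested. Foxo1 had 49.2, 43.7 and 19.9 CPM in cKO and 5.30 to 26.2 in controls (log2 fold change 2.05, adjusted p = 0.00421, edgeR), with 2 of 3 cKO libraries above all controls. Klf4, which can activate Cdkn1a, rose by 1.52 on the log2 scale (adjusted p = 0.0205, edgeR), and all cKO libraries lay above the controls.

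Mycn, a MYC family factor that promotes division, fell by 0.86 on the log2 scale (adjusted p = 0.0187, edgeR). It had 163, 140 and 151 CPM in cKO against 202 to 384 in controls. Trp53, which encodes p53 itself, had 203 ± 34.4 CPM (SD, n = 3) in cKO and 230 ± 25.9 CPM (SD, n = 7) in controls. The log2 fold change was -0.18 ± 0.15 (SE) with an adjusted p of 0.606 (edgeR). The level of the Trp53 transcript does not report on the p53 protein.

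Cdkn1a is one of many known p53 targets. Of 24 other targets tested 6 were called higher and none lower, beside 2.27% and 0.883% of all genes tested. Their median log2 fold change was 0.57. Phlda3, an inhibitor of AKT, had 64.1, 36.6 and 69.6 CPM in cKO and 5.82 to 14.6 in controls (log2 fold change 2.39 ± 0.28 SE, adjusted p = 7.41e-05, edgeR). Sesn2, a stress-response gene, had 57.3, 24.4 and 50.1 CPM in cKO and 4.22 to 10.3 in controls (log2 fold change 2.70 ± 0.34 SE, adjusted p = 9.40e-05, edgeR). Phlda3, Sesn2 and Cdkn1a each had their lowest cKO value in replicate 2. Eda2r, a receptor of the TNF receptor family, had 15.9, 15.4 and 19.5 CPM in cKO and 0 to 4.21 in controls, a log2 fold change of 4.19 ± 0.83 (SE) that rests on few control reads (adjusted p = 0.000231, edgeR). Without control replicate 4 the log2 fold change of Eda2r was 5.84, and with DESeq2 it was 4.37 with an adjusted p of 0.202.

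Bbc3, the cell death gene also known as Puma, had 127.5, 16.2 and 38.6 CPM in cKO and 7.57 to 23.2 in controls (log2 fold change 1.95, adjusted p = 0.0213, edgeR). Replicate 2 lay among the controls, and without cKO replicate 1 the log2 fold change was 0.74 with an adjusted p of 0.372 (edgeR). Psrc1 and Gtse1, p53-linked genes that are also known from the later phases of the cycle, had log2 fold changes of 1.54 and 1.75 (adjusted p = 0.000633 and 0.00272, edgeR). Other targets did not pass the test. Mdm2, which encodes the ligase that p53 induces against itself, had a log2 fold change of -0.53 ± 0.19 (SE) and an adjusted p of 0.167 (edgeR). Ccng1 had 0.64 ± 0.23 and 0.151, and Bax had 0.30 ± 0.21 and 0.508. Of the 24 estimates, 16 were above 0.

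**Figure D4:**
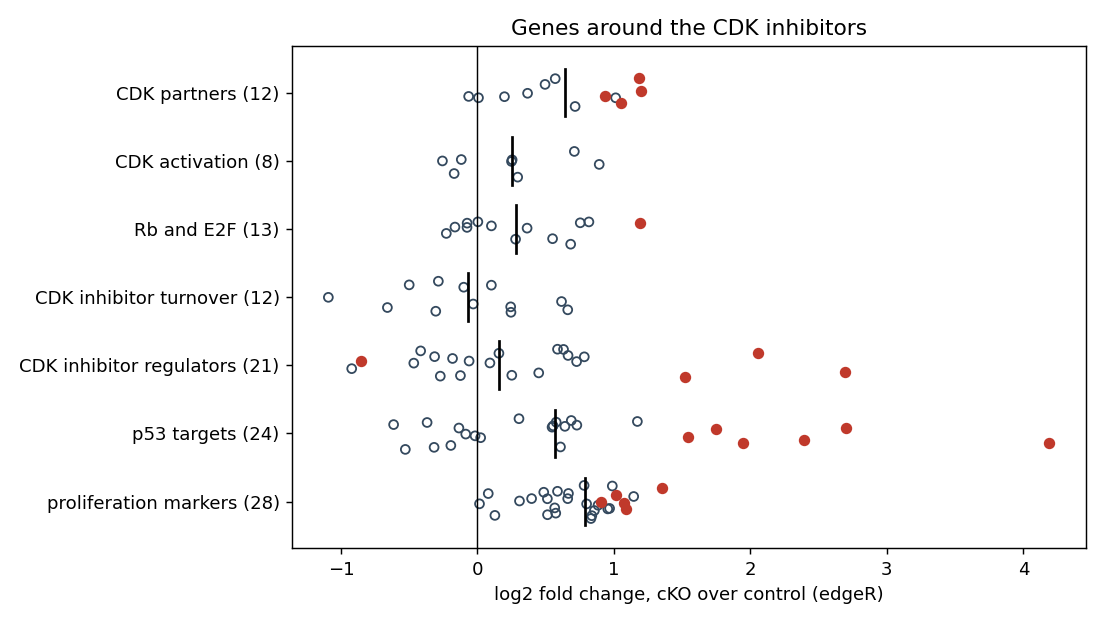
Log2 fold change of cKO over control (edgeR) for each tested gene of 7 lists, with the number tested in parentheses. Each point is a gene, filled red where called and open where not, and black lines are list medians. The highest called gene is the p53 target Eda2r at 4.19, the lowest is Mycn among the regulators at -0.86, and in the proliferation list all 28 points lie above 0.

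The proliferation markers give the background for Cdkn3. Of 28 markers 5 were called higher (Hmgb2, Ube2c, Birc5, Cenpf and Mcm5), beside 2.27% of all genes tested. An unadjusted p under 0.05 was found for 18 of them (beside 16.4% of all genes tested). All 28 estimates were above 0, with a median of 0.79. Hmgb2, a chromatin protein of dividing cells, had 144, 271 and 221 CPM in cKO and 74.9 to 139 in controls (log2 fold change 1.07 ± 0.20 SE, adjusted p = 0.00418, edgeR). Ube2c, a ubiquitin-conjugating enzyme of mitosis, had 259, 451.5 and 255 CPM in cKO and 74.2 to 226.5 in controls (log2 fold change 1.35 ± 0.28 SE, adjusted p = 0.00936, edgeR). Both genes were above all controls in each cKO library. Birc5, Cenpf and Mcm5 had log2 fold changes of 1.09, 1.01 and 0.91 with adjusted p of 0.0361, 0.0385 and 0.0418 (edgeR). They passed the threshold in only 3, 3 and 2 of the 10 fits that left out 1 library.

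The 28 markers summed to 1816, 3445 and 2716 CPM in cKO replicates 1 to 3 and to 1385 to 2133 in controls. Cdkn3 was low in the cKO library with the low sum and high in those with the high sums. Per 1000 CPM of these markers, Cdkn3 had 2.79, 4.69 and 5.16 CPM in cKO and 2.03 to 4.64 in controls, and the ranges overlapped. The order was another for Cdkn1a, of which cKO replicate 2, with the highest sum, had the lowest level among cKO libraries. The part of a larger share of cycling cells in the level of Cdkn3 was not tested.

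**Figure D5:**
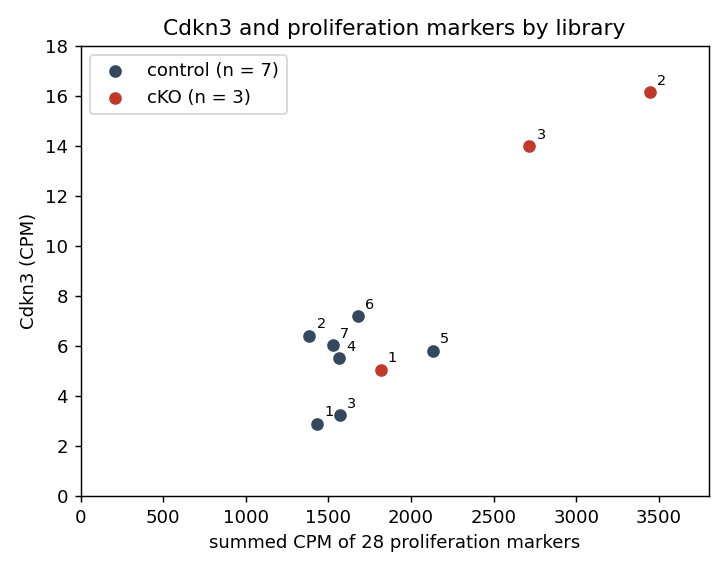
Cdkn3 (CPM) against the summed CPM of 28 proliferation markers in each library, on linear axes from 0, with replicate numbers beside the points. cKO replicates 2 and 3 have the highest values on both axes, and cKO replicate 1 lies among the controls on both.

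Genes most like each member were ranked by Pearson r of log2 CPM, after removal of each genotype's mean, over 10 libraries, for genes with 50 or more reads on average. These are the highest of very many values over few libraries, which share depth and cell makeup. For Cdkn1a they were Bnip2 (r = 0.92) and Cops7b (0.89). For Cdkn1b they were Taf8 (0.92) and Camk2b (0.92), and for Cdkn1c St3gal5 (0.99) and Pias4 (0.96). For Cdkn2c they were Hnrnpll (0.95) and Mcm3ap (0.89), for Cdkn2d Asf1a (0.95) and Tmem70 (0.95), and for Cdkn3 Crnkl1 (0.96) and Pax6 (0.95). None of these 12 genes was itself called between genotypes.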

How the data were processed

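The authors aligned Smart-Seq2 reads to GRCm38 with STAR 2.5.0c and deposited raw counts per GENCODE M16 gene for each library, with no normalization. Of their columns the one in which strand plays no part was used, since the libraries are unstranded. Symbols, lengths and positions were taken from GENCODE M21 of the same build: 50604 of 53379 identifiers matched with version, 2670 without and 105 did not. Counts were not of unique molecules, so intervals cover counting error and the spread between embryos. Lines without a gene (8.64% to 15.5% of reads in cKO, 5.47% to 16.7% in controls, outside genes) stayed out of totals.

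Genes averaging 10 or more reads were fitted with edgeR 4.0.16 (TMM, genotype alone, glmQLFTest, R 4.3.3), and the procedure was tested on simulated data. DESeq2 1.42.0 and limma 3.58.1 served as alternatives. The biological coefficient of variation was 28.3%. CPM values are scaled to TMM-adjusted totals of reads on genes. No 2 libraries held the same values.

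The members, lists and tests were chosen with earlier results of these data known. Named were the members, genes that overlap them, all called genes of each list or else the 2 with the smallest p (p53 targets, at most 8), and the 2 genes most like each tested member. Trp53, Mdm2, Ccng1, Bax, Cdk4 and Cdk6 were added after their values were seen, and the p53 half-site after the windows were read. The counts over exon bases of 1 gene were likewise added after seeing the data.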

Additional observations from a re-analysis of the deposited data

Results flagged for a closer look

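Among the members and the list genes named, 30 genes were checked that had reads in more than 1 control. In 5 of them 1 of the 7 controls stood apart from the others by Dixon's criterion at the 95% level, which chance alone meets in about 1 of 20 groups. Control replicate 2 had 69.2 CPM of Cdkn1a, while the other controls had 9.71 to 24.2. Control replicate 6 had 70.5 CPM of Cdkn1b, while the others had 81.1 to 88.9. Control replicate 5 had 168 CPM of Cks1b, beside 99.8 to 128 in the others, and 26.2 CPM of Foxo1, beside 5.30 to 11.8. Control replicate 4 had 4.21 CPM of Eda2r, beside 0 to 1.45. In a further 2 genes the criterion is met by construction, because a single control held all reads: control replicate 3 had 0.883 CPM of Cdkn2a (3 reads), control replicate 1 had 0.726 CPM of Cdkn2b (2 reads), and the other controls had 0 of each.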

How the results depend on the processing

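Cdkn1a and Cdkn1c passed the threshold in the same direction in each of the 20 alternative fits, with log2 fold changes of 2.88 to 3.76 and -4.07 to -3.37, and no other tested member did except Cdkn3 without cKO replicate 1. Leaving out each library in turn gave Cdkn3 a log2 fold change of 0.78 to 1.52, Cdkn2c -0.14 to 0.30 and Cdkn2d -0.27 to 0.08, with a change of sign for Cdkn2c without cKO replicate 2 (-0.14) and for Cdkn2d without cKO replicate 1 (0.0778). The genotypes share replicate numbers, but same-numbered libraries did not deviate together (r = 0.04, -0.10 and -0.21), and the numbers were not taken as pairs. With the replicate block, Cdkn2c had -0.18, and 213 genes were called, 141 of them higher, against 364 and 262 without it. Without the read filter 961 genes were called, 701 higher and 260 lower, and 33 list genes in place of 20. DESeq2 called 210 genes lower against 102, and leaving out each library gave 83 to 156. Cdkn1c per 1000 exon bases was 89.2 CPM in controls and 6.79 in cKO with both strands summed, and 67.8 in controls over exon bases of 1 gene, which brought the Cip/Kip sum in controls to 114 and 93.6. Of the 20 list calls, limma-voom lost 6 (Ccnb2, Ccnb1, Cdk1, E2f7, Bbc3 and Birc5), the replicate block 5 (Cdk1, E2f7, Mycn, Klf4 and Mcm5), thinning to equal depth 5, a covariate for reads outside genes 2, and DESeq2 2 (Trp73 and Eda2r, adjusted p = 0.0807 and 0.202). Cdkn3 and Cdkn2c had few reads, and Cdkn2a and Cdkn2b, fitted only without the read filter, were not called there.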
